A study of Mus musculus with 4 samples.

Results

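The cytosolic ribosomal protein genes were followed in whole mouse retina after genetic expression of diphtheria toxin fragment A (DTA), a toxin that blocks translation. Members were chosen by symbol alone: every gene whose name begins with Rpl or Rps and a number, or with Rplp and a number, without S6 kinase genes (Rps6k) and symbols marked as pseudogenes (-ps). The rule found 85 of 22558 gene symbols, 52 of the large subunit (Rpl) and 33 of the small subunit (Rps). Of the 85, 76 encode structural proteins of the ribosome. The other 9 are paralogs or other genes with such a name: Rpl3l, Rpl7l1, Rpl10l, Rpl22l1, Rpl36al, Rpl39l, Rps4y2, Rps27l and Rps19bp1. Rps19bp1 encodes a protein that binds the ribosomal protein Rps19, and RefSeq lists Rps4y2, there named Rps4l, as a transcribed pseudogene. Ribosomal protein genes with other symbols, such as Rpsa, Fau and Gnb2l1, are given as a separate list.

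The mice were about 8 weeks old, on a mixed C57BL/6 and 129 background, and all carried 1 R26R-DTA allele. Control mice had the genotype +/+; R26R-DTA/+, and DTA mice the genotype Msi1-CreERT2/+; R26R-DTA/+. CreERT2 is a recombinase that needs a ligand, here driven from the Msi1 gene, and it turns on the toxin in the cells that express it. Each genotype gave 1 library of polyadenylated RNA at day 1 post-injury and another at day 5, so the 4 groups hold 1 library each. Neither the inducing agent nor the number of mice per library is stated. Every difference therefore compares 1 library with another, with no replicate or standard deviation. The 1 test given below treats the days as a pair of repeats. Where 4 values follow each other they run from day 1 to day 5 with the control ahead of DTA, and 3 values leave out day 1 DTA, whose file is short; the libraries of the other 3 groups are called full. The toxin inactivates elongation factor 2, the enzyme that moves the ribosome along the mRNA, and so stops protein synthesis in the cell that makes it.

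A cytosolic ribosome is built from ribosomal RNA and, for most ribosomal proteins, an equal number of molecules of each. The large subunit forms peptide bonds and carries the stalk that recruits elongation factors, and the small subunit reads the mRNA. Most ribosomal protein mRNAs begin with a C followed by a run of pyrimidines, the 5′ terminal oligopyrimidine (TOP) tract, through which the mTOR pathway controls their translation. Their mRNAs are among the most abundant and most stable of the cell, and the mouse genome holds many processed copies of them.

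Start site sequences were read from RefSeq (GRCm38.p6) for the 64 of 85 members that matched by symbol. Each line below gives the 15 bases before and the 15 bases from the annotated start, 5′ to 3′, for members the results turn on, with capitals for a run of pyrimidines (C or T) that begins with C within 10 bases on either side of the start and is at least 5 long. Rps24 and Rps27l each have a second annotated start in the table, not shown, with no such run.
Rps6, chr4:86857353-86857382, minus strand: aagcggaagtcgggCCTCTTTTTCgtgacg
Rps24, chr14:24490663-24490692, plus strand: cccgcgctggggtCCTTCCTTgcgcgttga
Rpl12, chr2:32961697-32961726, plus strand: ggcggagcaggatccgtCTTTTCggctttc
Rps27, chr3:90213634-90213663, minus strand: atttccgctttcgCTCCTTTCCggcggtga
Rps27l, chr9:66946071-66946100, plus strand: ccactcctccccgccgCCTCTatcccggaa
Rpl22l1, chr3:28805493-28805522, plus strand: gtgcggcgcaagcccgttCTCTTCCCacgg
Rpl7l1, chr17:46782642-46782671, minus strand: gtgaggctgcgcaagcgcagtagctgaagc

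Rps6, the small subunit protein that S6 kinase phosphorylates, had a run of 10 pyrimidines, Rps27 had 9 and its paralog Rps27l had 5, while this window of Rpl7l1 held no such run. Counting a gene when any of its annotated starts had a run of at least 5, the share was 59.4% of matched members and 32.6% of all 27025 genes in the same table. A run of at least 8 was found in 32.8% of members and 8.44% of all genes. The windows depend on the annotated start, which can lie some bases from the true one, and a window without a run says only that these letters are absent there.

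Before the start, in the 250 bases that the table gives, the Ets core TTCCGG (either strand) stood in 39.1% of members and 13.6% of all genes. Other genes of the translation machinery had similar shares, 40.3% of mitochondrial ribosomal proteins and 34.8% of biogenesis genes. TATAAA, the TATA box, was found on either strand in 6.25% of members and 14.3% of all genes. The 120 bases before the Rps6 start (chr4:86857368-86857487, minus strand) are shown as an example with the Ets core, in capitals in its reverse form CCGGAA.
Rps6 upstream: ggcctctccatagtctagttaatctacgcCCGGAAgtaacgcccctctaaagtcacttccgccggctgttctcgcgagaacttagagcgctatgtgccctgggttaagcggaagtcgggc

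Depth, estimated from what 1 fragment adds to the FPKM of low genes, was 74.2, 99.1, 35.6 and 28.9 M fragments in the 4 libraries. FPKM counts fragments scaled for transcript length and library depth. The authors' intervals around the members' FPKM had median half-widths of 4.30% to 6.82% and cover 1 library only. In 68.4% to 82.3% of the members at 5 FPKM or more the FPKM itself lies above its upper bound. Over all genes at that level the share was 24.8% to 51.1%. The counts of intervals that lie apart, given below, use these bounds. The day 1 DTA file holds 21 of the 85 members (13 large, 8 small), so the other 64 have no value in that group. Members with a value there lie on chromosomes 1 and 10 to 14, and members on other chromosomes have none. Of known cell type markers, the sum of 9 rod genes was 11020 and 13956 FPKM in the day 1 and day 5 controls. In day 5 DTA 7 of the 9 were called lower by the size rule given below, against 1.77% of all genes. The median log2 difference of the 9 was -1.85. The sum of 10 microglia genes was 26.3, 25.8 and 174 FPKM in the 3 full libraries. The sum of 7 lens genes, which mark a neighbouring tissue, was 1472, 235 and 14.4 FPKM in the same order, and that of 7 pigment epithelium genes 339, 171 and 65.6 FPKM. In a whole tissue, fewer cells of a type and less RNA per cell cannot be told apart.

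Ribosomal protein transcripts made up 2.77%, 2.89% and 2.82% of the summed FPKM of the 3 full libraries. Large subunit members gave 1.58%, 1.65% and 1.66% in the same order, and small subunit members 1.19%, 1.24% and 1.17%. Over the genes listed in all 4 libraries, the 21 members present held 2.12% (control) and 1.89% (DTA) at day 1 and 2.37% and 2.19% at day 5. The share of these 21 was lower in DTA than in the control of the same day on both days. At day 1 this held for both subunits, at 1.15% (control) and 1.06% (DTA) for the large and 0.98% and 0.83% for the small. At day 5 it held for the small subunit only, at 1.12% (control) and 0.93% (DTA), while the large subunit had 1.25% in either genotype. The summed FPKM of the 21 was then 2220 (control) and 2229 (DTA), out of totals of 93502 and 101950. The 2 controls differed in the share of the 21 by about as much as DTA did from its control.

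The most abundant member was Rplp1, an acidic protein of the stalk, at 598, 574 and 527 FPKM in the 3 full libraries. Rps15, a protein of the small subunit head, followed at 381, 315, 402 and 329 FPKM in the 4 libraries. Rpl9 of the large subunit stood at 305, 280 and 239 FPKM in the full libraries. Among the 5 highest, Rps15 was lower in DTA on both days and Rpl9 and Rplp1 were lower at day 5, while Rpl38 and Rpl8 stood close to their controls. Rpl38 had 258, 244, 268 and 278 FPKM in the 4 libraries. Rpl8 had 251, 268 and 276 FPKM in the full ones.

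At the low end were Rpl3l, the muscle form of Rpl3, and Rpl10l and Rpl39l, forms known from the testis. None of the 3 reached 1 FPKM in any library, and Rpl3l was listed at 0 in the day 5 control and Rpl10l in day 1 DTA. Among the lowest structural members as listed was Rps27, at 3.04, 2.17 and 4.25 FPKM in the full libraries. The annotation used by the authors has a second gene model at its place, described next.

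**Figure D1:**
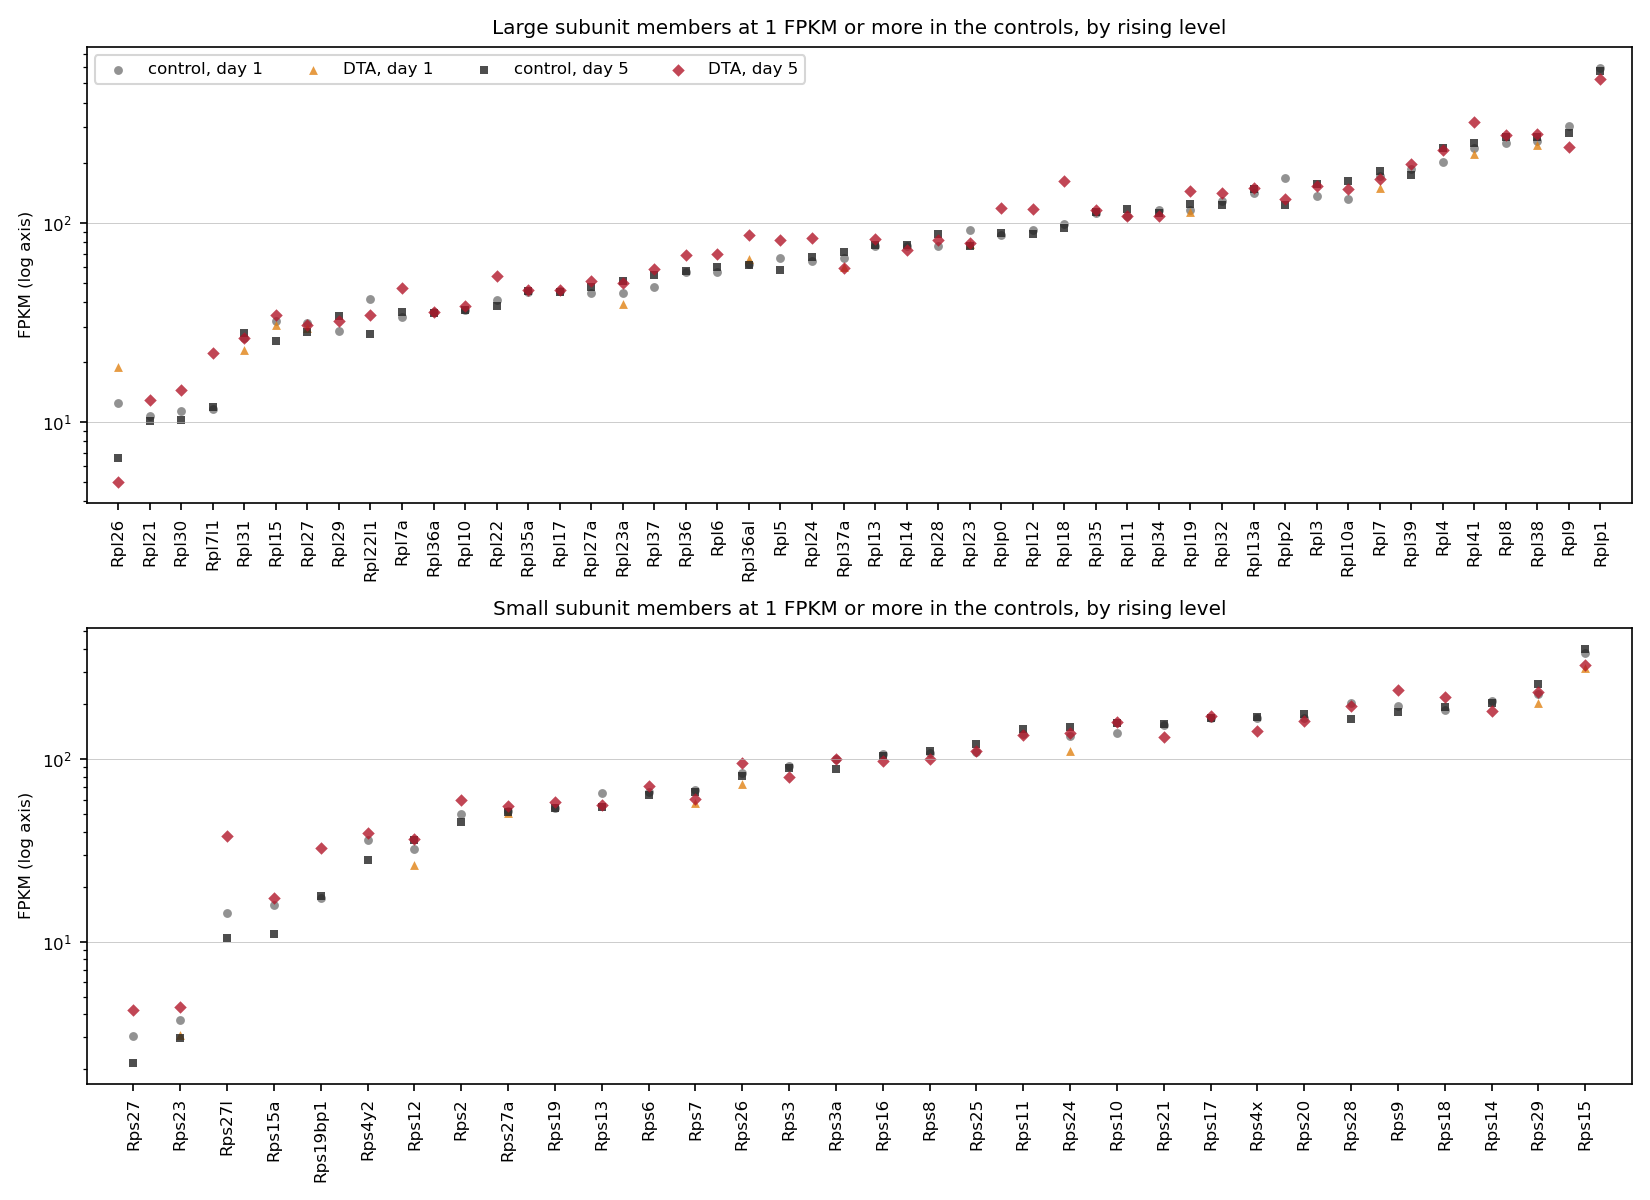
FPKM (log axis) of each large subunit member (upper panel) and small subunit member (lower panel) with a control mean of at least 1 FPKM, apart from those not reported here, ordered by that mean; each symbol is 1 library. Rplp1 and Rps15 lead the subunits, Rps27l stands apart from its controls at day 5, and the lowest members of each panel include those that share their locus with another gene model.

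Some members overlap another gene model over most of their length, and in 4 of those described here that model holds most of the signal. The member's share of the summed FPKM of its locus in the day 1 control was 3.42% for Rps27 beside Gm9846, 4.36% for Rps23 beside Gm15450, 7.92% for Rpl26 beside Gm15772 and 8.69% for Rpl30 beside Gm12191. Rpl34, beside Rpl34-ps1, holds all but a trace of its locus. In RefSeq these 4 Gm symbols, or their current names, belong to genes on other chromosomes, and 3 of the 4 are pseudogenes there. The file marks these Gm models, apart from Gm12191, as LOWDATA, so the sums rest on estimates that Cufflinks itself flagged. A low FPKM of these 4 members is therefore not a low level of the locus.

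Rpl26, a protein near the exit of the peptide tunnel (mm9, chr11:68715068-68718036), shows the effect on a comparison. Its own values were 12.4, 18.9, 6.61 and 5.01 FPKM in the 4 libraries. Summed with Gm15772 they were 157 and 147 FPKM at day 1, and 198 and 190 FPKM at day 5. On its own line Rpl26 had the highest difference of all members at day 1 (0.57) and the lowest at day 5 (-0.34), while the sums differed by -0.09 and -0.06. Rps23, a protein of the small subunit's decoding region, was at 3.74, 3.08, 2.97 and 4.40 FPKM. Its sums were 85.8 and 76.0 FPKM at day 1 and 91.4 and 83.0 FPKM at day 5, lower in DTA on both days.

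**Figure D2:**
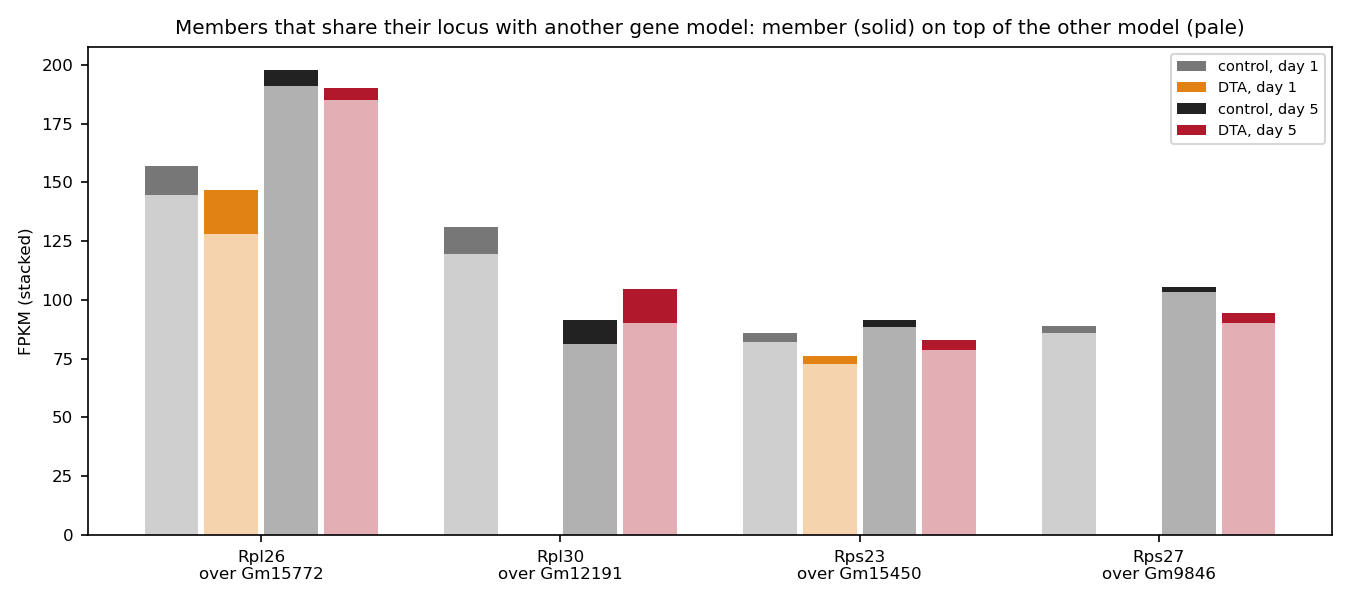
FPKM (linear axis from 0) of 4 members and of the other gene model at the same locus, stacked, with 1 bar per library; solid is the member and pale the other model. The member is the thin upper part of each bar, and the totals for Rpl26, at 157, 147, 198 and 190 FPKM, differ by a smaller factor between libraries than its own part. The totals for Rpl30 were 131, 91.6 and 105 FPKM.

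With these sums in place of the members' own lines, the lowest structural genes in the mean of the controls were Rpl21 (10.4 FPKM), Rps15a (13.5 FPKM) and Rpl31 (27.1 FPKM). The median was 96.9 FPKM and Rplp1 stayed highest at 586 FPKM. Near-identical copies were counted as matches in mm9 of at least 95% identity over at least 90% of the coding sequence, for the 75 structural members with a coding sequence in GENCODE. There were 565 copies in all, with a median of 6 per gene, none for Rpl8 and Rps3 and 55 for Rpl21. On these sums the 16 genes with 10 or more copies had a median of 45.5 FPKM and the 56 genes with 1 to 9 copies a median of 114 FPKM in the mean of the controls, and on the own lines 39.9 and 109 FPKM. Across the 75 genes the number of copies and the log2 level had a Spearman rho of -0.47 and a Pearson r of -0.57 on the sums, and -0.47 and -0.38 on the own lines. These are genes of the same libraries, not independent samples, and how fragments that match several copies were placed is not stated.

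The comparison of the 2 controls shows how far libraries of the same genotype differed. Values are differences of log2(FPKM + 1), and genes were called from a size of 1 on, given 5 FPKM or more in 1 of the libraries. Of 79 members at 5 FPKM or more none was called, and 2.57% of all 9321 genes were. At a size of 0.5, 2 members were lower (Rpl26 and Rpl22l1) and none higher, against 7.28% of all genes in either direction and 5.51% lower. The members' median difference, day 5 minus day 1, was 0.01, and 86.1% lay within 0.25 of 0, against 71.2% of all genes. Rpl26 (-0.82), Rpl22l1 (-0.56), Rps15a (-0.50), Rplp2 (-0.45) and Rps27l (-0.42) were lowest, and Rpl10a, which forms the mobile L1 stalk, was highest at 0.31. Rpl10a stood at 131 and 162 FPKM in the day 1 and day 5 controls, Rps15a at 15.96 and 11.03 FPKM. Xist, the RNA of the inactive X chromosome, was at 0.00596 and 53.7 FPKM in the 2 controls. The 4 Y-linked markers were all below 0, with 3 called lower in the day 5 control. The 2 controls thus differed in sex markers as well as in day, and this pair also sets a limit for the DTA calls below. In day 5 DTA Xist was at 60.4 FPKM, near the control of that day. None of the 5 sex markers has a value in day 1 DTA, so whether that library matched its control in sex is not known. The 4 X-linked members Rpl10, Rpl36a, Rpl39 and Rps4x differed between the controls by only -0.10 to 0.01.

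At day 1 most ribosomal protein transcripts with a value were slightly below their control in DTA retina, and the median of the small subunit lay below that of the large. For DTA against control a call also asked for a difference larger than the gene's own between the controls. Of Müller glia markers, both with a value were below 0, at -0.92 (Glul) and -0.67, and of 2 rod markers 1 was below (-0.67) and 1 above (0.30). None of the 4 was called, and their part in the members' values was not tested. No member was called of 19 at 5 FPKM or more, against 2.67% of all 2623 genes (0.61% lower), and none at a size of 0.5, against 6.79%. The difference between the subunits was not tested. All 8 small subunit members and 11 of 13 large subunit members were below 0. The median was -0.23 for the small and -0.08 for the large subunit. At 5 FPKM or more it was -0.24 and -0.09, against 0.05 for all genes, of which 59.6% were above 0. Among the 290 genes at 50 FPKM or more in the mean of the controls, a level closer to that of the members, the median was -0.04 and 58.3% were below 0, against 90.5% of the members. Scaling by the median ratio or by a sum without rod, lens and ribosomal protein genes left 19 of 21 members below 0. Between the controls the medians were 0.02 for the large and -0.03 for the small subunit, over all members of each.

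Rps12 of the small subunit had the lowest difference at day 1 (-0.29), from 32.2 FPKM in the control to 26.2 in DTA. Rps15 differed by -0.27, from 381 to 315 FPKM. Rps24, a small subunit protein mutated in Diamond-Blackfan anaemia, also differed by -0.27, from 133 to 110 FPKM. All 3 belong to the small subunit. Rps7 (67.9 and 57.3 FPKM, -0.24) and Rpl23 of the large subunit (91.4 and 78.1 FPKM, -0.22) came next. At the other end, apart from the Rpl26 line described above, were Rpl36al (62.2 and 65.8 FPKM, 0.08), Rpl19 (115 and 113 FPKM, -0.02), Rps27a, which is made as a fusion with ubiquitin (52.2 and 50.9 FPKM, -0.04), and Rpl15 (32.3 and 30.6 FPKM, -0.08). With the sums of shared loci the 20 members then at 5 FPKM or more ranged from -0.29 (Rps12) to 0.08 (Rpl36al), and 19 of 20 were below 0. The authors' intervals of DTA and control lay apart on the lower side in 8 of 19 members, against 17% of all genes, and on the higher side in 1 (Rpl26), against 33.6%.

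At day 5 both subunits stood near the control, while 842 genes in all were called. One member of 79 at 5 FPKM or more was called, Rps27l, which is 0 of 48 in the large and 1 of 31 in the small subunit, against 8.52% of all 9883 genes (6.75% higher, 1.77% lower). The median difference was 0.10 for the large and 0.03 for the small subunit as deposited, but it turned to -0.14 and -0.21 under median ratio scaling and to -0.03 and -0.10 under sum scaling. The ratio scaling subtracts 0.24, the median log2 ratio over 8581 genes, and relative to that median the members stood lower. All genes at 5 FPKM or more had a median of 0.26, against 0.08 for the large and 0.03 for the small subunit at that level. Genes can enter this set through a high value in DTA. The 991 genes at 50 FPKM or more in the mean of the controls had a median of -0.03 as deposited and -0.27 under ratio scaling, close to the structural members at 0.04 and -0.20.

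The spread of the members at day 5 can be set beside that of all genes, without a test. Of the 79, 54 (68.4%) lay within 0.25 of 0, against 38.0% of all genes at 5 FPKM or more. The interval from the 10th to the 90th percentile was -0.13 to 0.47 in the large and -0.20 to 0.47 in the small subunit, against -0.28 to 0.85 over all genes. Of the genes at 50 FPKM or more in the controls, 46.1% lay within 0.25. At a size of 0.5, 5 members were higher and none lower, where 31.1% of all genes passed (26.5% higher and 4.58% lower). The intervals of DTA and control lay apart on the higher side in 25 of 79 members, against 53.5% of all genes, and on the lower side in 9, against 13%.

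**Figure D3:**
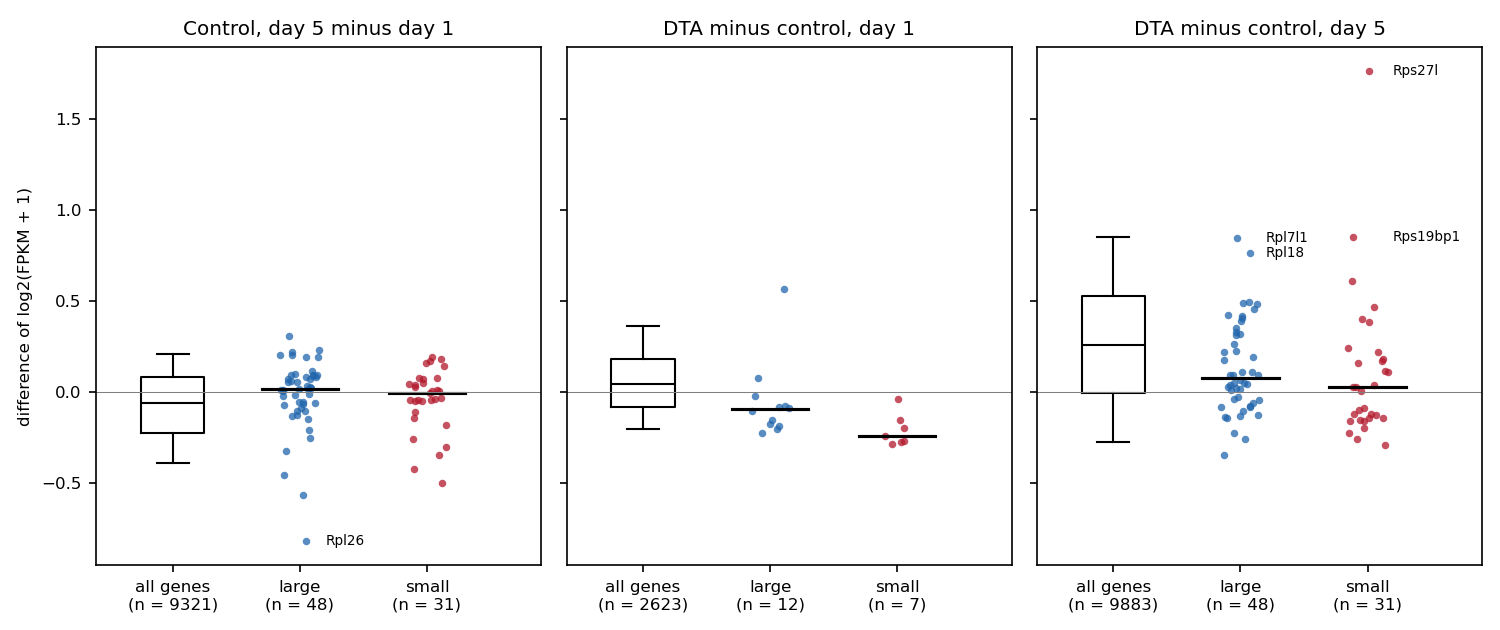
Differences of log2(FPKM + 1) for large and small subunit members at 5 FPKM or more in the 3 comparisons; each dot is a gene, bars are medians, and the boxes show all genes at 5 FPKM or more (quartiles, with whiskers at the 10th and 90th percentile; genes beyond are not drawn). Small subunit members lie below 0 at day 1; at day 5 the medians lie just above 0 as deposited and turn below 0 under both other scalings.

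The 5 members higher by at least 0.5 were Rps27l (1.77), Rps19bp1 (0.85), Rpl7l1 (0.85), Rpl18 (0.76) and Rps15a (0.61). Of these, 2 are structural. Rpl18, a large subunit protein (mm9, chr7:52973441-52976205), was at 98.99, 94.3 and 161 FPKM in the full libraries, with DTA above both controls. Rps15a was at 15.96, 11.03 and 17.4 FPKM, so day 5 DTA lay near the day 1 control. The lowest members, after the Rpl26 line, were Rps15 (-0.29), Rpl37a (-0.26), Rps4x (-0.25) and Rpl9 (-0.23). Rpl37a was at 66.8, 60.1, 71.4 and 59.5 FPKM in the 4 libraries. Rps4x, the X-linked form of Rps4, was at 168, 169 and 142 FPKM in the 3 full libraries. Rps15 and Rpl37a thus stood lower in DTA on both days, each DTA value below both controls.

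By role, the stalk and its base did not share 1 direction at day 5. Rplp0, which anchors the stalk, was at 86.5 and 88.2 FPKM in the day 1 and day 5 controls and at 119 in day 5 DTA (0.42). Rpl12, at the base of the stalk, was at 91.9, 87.7 and 118 FPKM (0.42). Both stood above both controls, while Rplp1 (-0.12) was below both and Rplp2, at 168, 122 and 131 FPKM (0.10), lay between its controls. Under either other scaling Rplp2 joined Rplp1 below 0.
Rpl5 and Rpl11, which bind 5S ribosomal RNA and can hold the p53 regulator Mdm2, also differed from each other. Rpl5 was at 66.8, 57.7 and 81.7 FPKM (0.49) and Rpl11 at 108, 118 and 108 FPKM (-0.13). Rps6 was at 65.6, 63.5 and 71.2 FPKM (0.16). Along the mRNA path, Rps2 (0.38), Rps28 (0.24), Rps26 (0.22) and Rps3a (0.17) were above 0, and Rps3 (-0.16) and Rps14 (-0.14) below. Rps28 and Rps3a lay between their controls, and the 0.24 that ratio scaling subtracts exceeds the differences of Rps26 and Rps3a. Of 8 around the tunnel exit, 5 were above and 3 below, from -0.34 to 0.48. The lowest is the Rpl26 line, whose sum differed by -0.06, and Rpl31 came next at -0.08. None of these members was called.

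The paralogs and Rps19bp1 lay on 1 side of the control at day 5, where the structural members lay on both. At day 5 all 9 were above 0, with a median of 0.47 as deposited, 0.25 under ratio scaling and 0.34 under sum scaling, and all 9 stayed above 0 under both. As deposited, 74.6% of all genes at 5 FPKM or more were above 0. Of the 76 structural members 47 were above and 29 below 0 as deposited, and 19 and 57 under ratio scaling. This difference between the groups of genes was not tested, and 3 of the 9 are below 1 FPKM. The groups also differed in level, with medians of 11.9 and 88.1 FPKM in the day 5 control. Across 75 structural members, log2 level and day 5 difference had a Spearman rho of -0.42. The 7 structural members under 20 FPKM in the mean of the controls had a median difference of 0.44. These are own lines and include Rpl26, Rpl30, Rps23 and Rps27. The part of level in the difference between the groups was not tested.

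Rps27l (mm9, chr9:66793925-66797316), a close paralog of Rps27 known as a target of p53, was at 14.4, 10.5 and 38.1 FPKM in the full libraries. Day 5 DTA was 3.63 times its control and above both controls, and the difference of 1.77 compares with -0.42 between the controls. It was called under every alternative tried that kept the paralogs, with differences of 1.35 to 1.85. The Rps27 locus, read as the sum with Gm9846, went from 105 to 94.4 FPKM (-0.16). Rps27l has no value in day 1 DTA, and no near-identical copy of its coding sequence was found.
Rps19bp1 was at 17.3, 17.7 and 32.8 FPKM in the full libraries, and its partner Rps19 at 53.9, 54.1 and 58.4 FPKM. Rpl7l1 was at 11.6, 11.9 and 22.3 FPKM, while Rpl7 was at 171, 148, 182 and 165 FPKM in the 4 libraries. In both pairs the controls of the first gene lay close together with DTA above them, and neither first gene was called.
Rpl36al was at 62.2, 65.8, 61.3 and 86.4 FPKM in the 4 libraries (0.49 at day 5), and Rpl36a at 35.8, 35.4 and 35.7 FPKM in the full ones (0.01). Rps4y2 was at 36.0, 28.2 and 39.4 FPKM in the 3 full libraries (0.47 at day 5), close to its day 1 control, against -0.25 for Rps4x. Rpl22l1 was at 41.2, 27.6 and 34.5 FPKM, between its controls, and Rpl22 at 41.1, 38.2 and 53.8 FPKM (0.48), above both. Among the 6 pairs drawn, this is the 1 in which the partner had the larger difference at day 5.

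**Figure D4:**
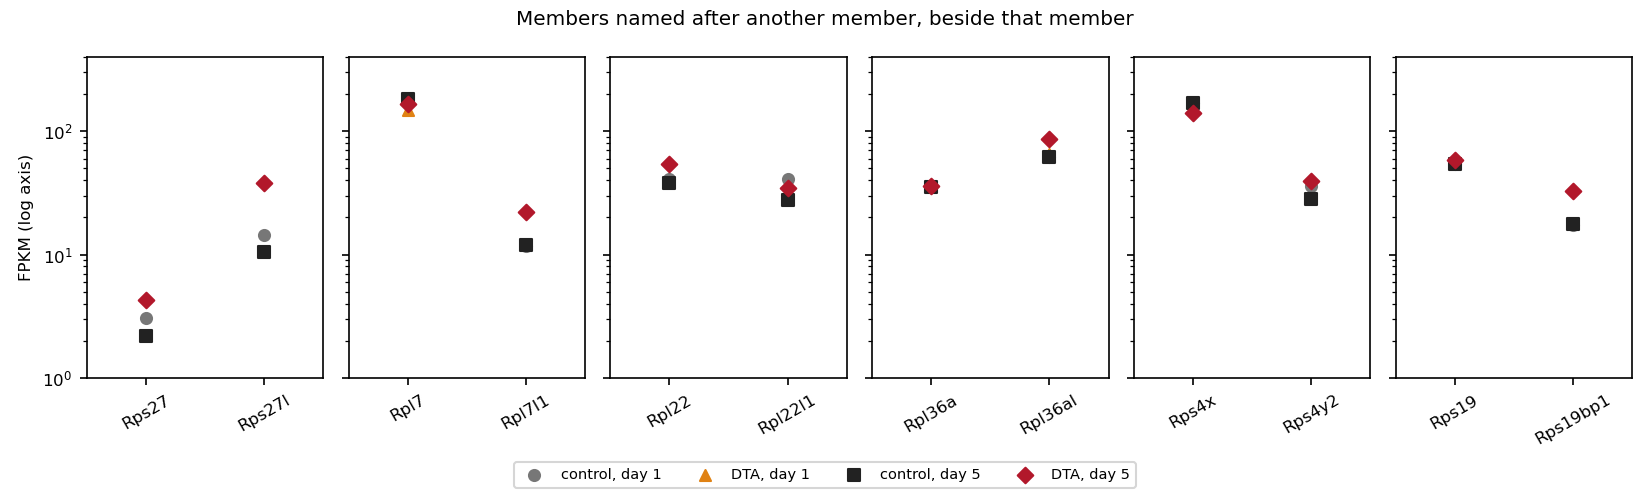
FPKM (log axis, shared by the panels) of 6 members named after another member, each beside that member, with 1 symbol per library. Of the 6, Rps27l, Rpl7l1, Rpl36al, Rps19bp1 and Rps4y2 have day 5 DTA above both controls, Rps4y2 only just above its day 1 control. Of the partners, Rpl22 also stands above both, while Rpl7, Rpl36a and Rps19 stay close to theirs. The Rps27 values are those of its own line.

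The 21 members with a value in all 4 libraries allow both days to be set side by side. The day 5 difference minus the day 1 difference was above 0 in 17 of 21, with a median of 0.15, and no member reached 1 in size, against 6.66% of 2777 genes. Over those genes the median was 0.22, and under ratio scaling the members' median turned to -0.04 with 9 above and 12 below 0. With the sums of shared loci the values ran from -0.11 (Rpl37a) to 0.49 (Rpl15). Rpl15 differed by -0.08 at day 1 and 0.41 at day 5, where its controls were 32.3 and 25.6 FPKM and day 5 DTA 34.4. Rps15 had similar differences on both days, -0.27 and -0.29. A limma fit with genotype and day as additive terms, chosen after seeing the data, took the days as pairs over the 2777 genes in all 4 libraries. It called none of 19 members at an adjusted p (Benjamini-Hochberg) under 0.05, none at an unadjusted p under 0.05, and 4.83% of all genes. Rps15 had the smallest p of the members, with a difference of -0.28 (limma adjusted p = 0.545), lower on 2 of 2 days. The fit leaves 1 residual degree of freedom, counts any change of the effect between the days as error, and cannot show that the members did not differ.

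The ribosomal protein genes with other symbols lay within the range of the members. Rpsa was at 89.2, 96.5 and 99.6 FPKM in the full libraries, and Fau at 201, 216 and 183. Gnb2l1, which encodes the scaffold Rack1, was at 122, 110, 136 and 143 FPKM in the 4 libraries. Their differences at day 5 were 0.05, -0.24 and 0.07, and Gnb2l1 differed by -0.15 at day 1. All 4 genes of this list were below 0 at day 5 under both other scalings. The medians were -0.33 under ratio scaling and -0.22 under sum scaling.

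Genes that build the ribosome had other values than the genes of its proteins. Of 51 ribosome biogenesis genes, all were above 0 at day 5, with a median of 0.87, 16 called higher and none lower. Of all genes at 5 FPKM or more, 6.75% were called higher and 74.6% were above 0. The count fell to 4 under ratio scaling, where 49 were above 0 (median 0.64), and to 2 with a pseudocount of 5 in place of 1. The shares of all genes are as deposited and were not recomputed under these settings. Nop58, a core protein of the box C/D snoRNA particle, was at 12.9, 32.3, 10.8 and 47.2 FPKM in the 4 libraries (1.27 at day 1 and 2.04 at day 5). Gnl3, nucleostemin, was at 6.03 and 12.4 FPKM at day 1 and 4.98 and 20.1 FPKM at day 5, and Ncl, nucleolin, at 35.7 and 52.6 FPKM and at 26.6 and 56.0 FPKM. At day 1 all 20 measured biogenesis genes were above 0 (19 under ratio scaling), with a median of 0.44. Only Nop58 was called, of 19 at 5 FPKM or more. Over all genes at that level at day 1, 2.67% were called in either direction and 59.6% were above 0. The median between the controls was -0.02.

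Some of the 12 non-coding host genes of snoRNAs are known TOP RNAs. All 12 were above 0 at day 5 (11 under either other scaling), with a median of 0.67. Of all genes at 5 FPKM or more, 6.75% were called higher and 74.6% were above 0. Of the 8 host genes at that level, 4 were called higher. Snhg12 was at 22.97, 23.01 and 102 FPKM in the full libraries (2.11). Snhg1 (1.59), Snhg6 (1.37) and Snhg5 (1.21) were the other 3, and Gas5 was at 6.74, 8.94, 6.01 and 10.2 FPKM in the 4. Between the controls this list had a median of -0.37. A pyrimidine run of at least 5 was found in 8 of the 11 host genes in the table, and the window of Snhg1 held none. Snhg12, with a run of 8, is shown as the host gene with the largest difference at day 5. A relation between run length and difference was not tested.
Snhg12, chr4:132308663-132308692, plus strand: ggccgttctcagtCCTTTCTCgcttcatcc

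Mitochondrial ribosomal proteins had a median of 0.43 at day 5 (0.21 under ratio scaling), with 71 of 76 above 0 and 6 called higher, Mrps28 the most at 1.28, a count that fell to 1 under ratio scaling and to 1 with a pseudocount of 5. At day 1 their median was 0.12 with none called. Of 36 initiation factors 34 were above 0 at day 5 (median 0.50, or 0.26 under ratio scaling), and Eif1a (1.71), Eif3a (1.42) and Eif5 (1.35) were called. Both counts as deposited stand beside 6.75% of all genes called higher and 74.6% above 0, shares not recomputed under the other settings. Elongation factors had none called and a median of 0.38 over 10 genes, or 0.14 under ratio scaling. Eef2, the protein that the toxin inactivates, was at 304, 280, 369 and 339 FPKM in the 4 libraries, with differences of -0.12 on both days. Of 15 other mRNAs known to carry TOP tracts none was called at day 5, and they ranged from -0.71 for Hnrnpa1 to 0.97 for Npm1, nucleophosmin, with a median of 0.39 (0.15 under ratio scaling). Of 20 regulators, 14 reached 5 FPKM at day 5 and 1 of these was called, the stress kinase Eif2ak3 (1.44). This stands beside 6.75% of all genes called higher. The median of the 20 regulators was 0.40 (0.18 under ratio scaling).

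**Figure D5:**
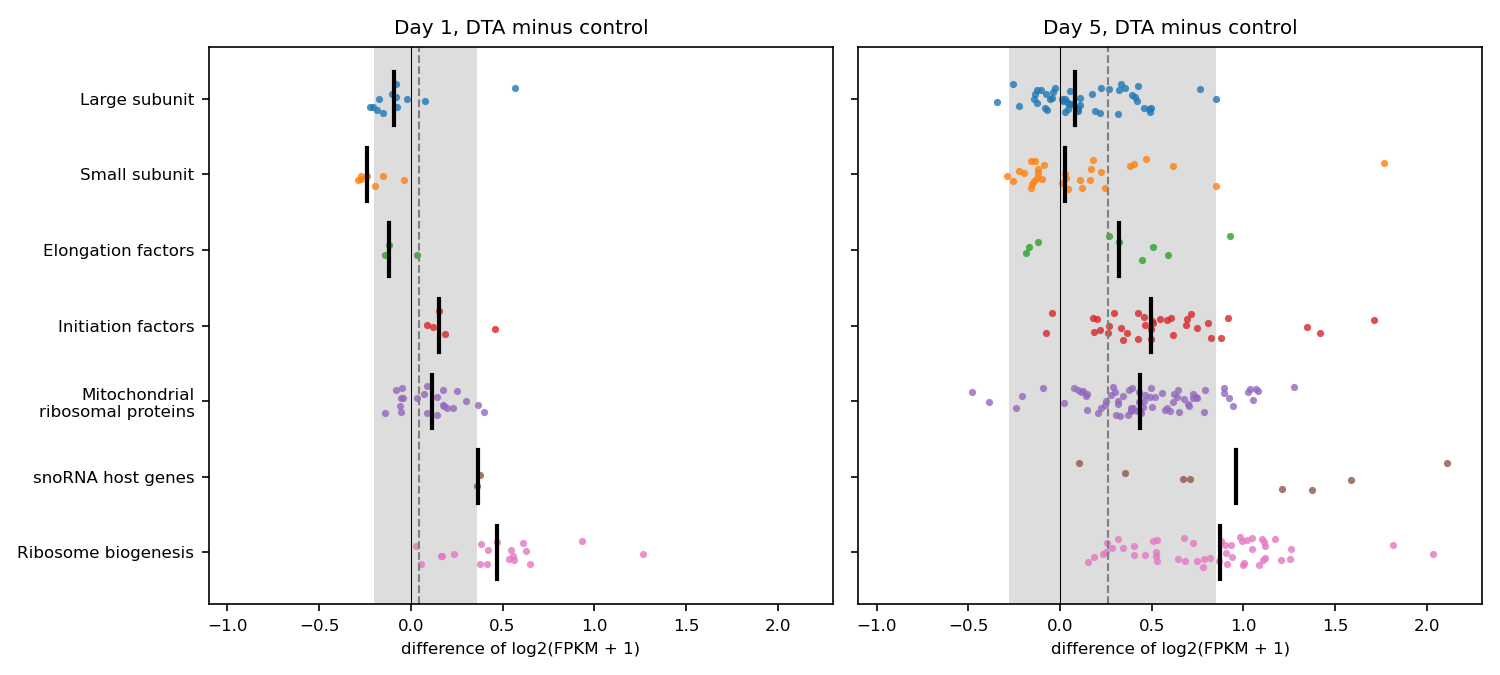
Differences of log2(FPKM + 1), DTA minus control, for genes at 5 FPKM or more in each list; dots are genes, thick bars medians, the grey band the 10th to 90th percentile of all such genes and the dashed line their median. Small subunit members lie lowest at day 1, and at day 5 the medians of both subunits lie left of the dashed line while those of the biogenesis and snoRNA host genes lie right of it; single genes of each list lie on either side.

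At day 5 these values stand beside a retina in which 7 of 9 rod markers were called lower. The 6 Müller glia markers were all below 0 (median -0.63), with 2 called lower, and the lens markers were at 14.4 FPKM in sum. Of all genes at 5 FPKM or more, 1.77% were called lower. The 10 microglia markers were all called higher (median 2.66), against 6.75% of all genes. Only 1 of the 10 reached 5 FPKM in a control, so the others could be called only through their day 5 DTA value. The part of such changes in cell makeup in the members' differences was not tested.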

How the data were processed

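Whole-retina RNA was extracted and made into mRNA libraries, per the labels' protocols. The deposited values are FPKM per gene with lower and upper bounds, computed by the authors; per the submitters' processing notes, Cufflinks 2.1.1, CASAVA 1.8.2, bcl2fastq 1.8.4 and mm9 were used, without roles. Aligner: not given in the sources used here. Lines of status FAIL or HIDATA were read as missing (none was a member) and lines with the same symbol were summed. The day 1 DTA file covers part of the genome only, and its FPKM were used as deposited. Differences were taken on log2(FPKM + 1), which understates the change of low genes. With 1 library per group a single day's comparison has no test, so genes were called by size: at least 1, at least 5 FPKM in 1 library and larger than the gene's own difference between the controls. The additive fit over both days used limma 3.58.1 in R 4.3.3 with a variance trend. Calling and this fit were tested on simulated data. Named members were those of the 5 highest and 5 lowest levels, the 5 largest differences each way in each comparison, those called, the stalk, 5S, Rps6 and Rps27a genes, and paralogs with partners; Eef2, Gas5 and the largest differences were named for other lists. Rpl29, Rpl4, Rpl28 and Rpl3, also in that rule, differed between the controls by 0.21 to 0.23. The members and lists were chosen with earlier results of these data known. Copies were sought with blastn 2.17.0 in mm9, and figures and sums made with Python 3.11.15 and pandas 2.3.3. Some members counted in the totals are not reported here by name. Proteins were not analysed here.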

Additional observations from a re-analysis of the deposited data

Results flagged for a closer look

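Rpl26 and Rps23 had differences of opposite sign at day 1 and day 5. For Rpl26 the day 5 difference minus the day 1 difference was -0.91, and for Rps23 it was 0.66. The difference between the days was not tested, since each group has 1 library. Both share their locus with another gene model, and with the sums of the shared loci the differences had the same sign on both days, -0.09 and -0.06 for Rpl26 and -0.17 and -0.14 for Rps23.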

How the results depend on the processing

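For 47 values, 182 alternatives were computed: 148 kept direction and size, 28 moved and 6 reversed. Medians were read as moved from a change of 0.1 on. Median ratio scaling turned the day 5 medians of the large (-0.14) and small subunit (-0.21), the day 1 median of other TOP mRNAs (-0.0268) and the median of the day 5 minus day 1 differences (-0.0404), where it gave 1 member of size 1, Rpl26. Scaling to the sum without rod, lens and ribosomal protein genes turned the day 5 medians to -0.0320 (large) and -0.10 (small). Ratio scaling also moved the day 5 medians of elongation (0.14) and initiation factors (0.26), other TOP mRNAs (0.15), snoRNA hosts (0.47), biogenesis (0.64, with 4 called), regulators (0.18) and mitochondrial ribosomal proteins (0.21, with 1 called). A pseudocount of 5 moved snoRNA hosts (0.40 at day 5, 0.25 at day 1), biogenesis (0.65 with 2 called at day 5, 0.33 at day 1), regulators (0.29) and the calls of mitochondrial ribosomal proteins (1). Against the control of the other day, 1 large subunit member was called at each day, Rpl26 both times (1.39 at day 1, -1.16 at day 5). Without the paralogs and Rps19bp1, 0 small subunit members were called at day 5. Without small RNA genes in the sum, the members' shares were 2.76%, 2.42%, 3.07% and 2.89% over the 4 libraries (day 1 control, day 1 DTA, day 5 control, day 5 DTA) and 3.17%, 3.33% and 3.26% over the 3 full ones; without rod and lens markers the day 5 control had 3.03%. The cause of these moves was not tested. The interval midpoint, members with fewer than 10 copies and same-locus sums were chosen after seeing the data and moved no value. No paired analysis was possible because the groups share only 1 replicate number; with the days as pairs, the additive limma fit called 0 of 19 members (0 at an unadjusted p under 0.05). The depth of day 5 DTA, 28.9 M fragments, is the lowest.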
